A study of Mus musculus with 5 samples.

Results

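The genes described here encode core splicing factors and heterogeneous nuclear ribonucleoproteins (hnRNPs). They are all protein-coding genes in the deposited table whose mouse symbol begins with Snrp, Sf3a, Sf3b, Srsf, Hnrnp or Prpf, which gave 65 of the 21835 genes listed. In all, 64 of them passed the filter on low values (at least 0.5 CPM, reads scaled to the library total, in at least 2 samples), as did 12175 genes of the whole table. The remaining member, *Srsf12*, was listed at 0 in all 5 samples.

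The RNA sequencing compared murine lung cancer-associated fibroblasts (CAFs) in culture, transduced with an empty lentiviral vector (CAF-vec, labelled WT control, 2 samples) or overexpressing the miR-200b/a/429 cluster from a lentiviral vector (CAF-200, 3 samples). All 5 samples carry the same lung, cell line and cell type labels. The labels name a vector with neomycin resistance and G418 selection, the methods a hygromycin vector introduced into lung fibroblasts, and neither gives the strain, age or number of the mice behind the CAFs. RNA was extracted in triplicate according to the methods, and 2 CAF-vec samples are analysed here. Nothing in the labels says that the samples of a group came from separate cultures, so the *p* values given here measure the spread between these samples, which may be technical.

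Splicing removes introns from the primary transcript. The spliceosome that does this is built from small nuclear ribonucleoproteins (snRNPs), in which the U1, U2, U4 and U5 RNAs each carry a ring of Sm proteins and the U6 RNA a ring of LSm proteins. U1 recognizes the 5′ splice site, U2 with its SF3a and SF3b complexes engages the branch site, and the U4/U6.U5 tri-snRNP brings in the Prpf proteins of the catalytic machine. SR proteins bind exons and mostly favor their inclusion, and hnRNPs coat the transcript and often oppose it, so the balance of these 2 families shifts alternative splicing, including at exons that differ between epithelial and mesenchymal cells.

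The overexpressed microRNAs pair with messenger RNAs mainly through their seed, bases 2 to 8 of the mature strand. The mature sequences from RefSeq (GRCm38.p6, chromosome 4, minus strand) are shown 5′ to 3′ with the seed in capitals, because the matches described below are read from them.
mmu-miR-200b-3p (chr4:156055685-156055706): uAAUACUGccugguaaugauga
mmu-miR-429-3p (chr4:156053916-156053937): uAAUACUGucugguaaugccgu
mmu-miR-200a-3p (chr4:156054911-156054932): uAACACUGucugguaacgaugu
The seeds of miR-200b and miR-429 are identical and differ from that of miR-200a, so a transcript can carry 2 kinds of 7-base match, CAGTATT for miR-200b and miR-429 and CAGTGTT for miR-200a.

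Across the 64 tested genes, the shift between the groups was small in both directions. The log2 fold-changes of CAF-200 over CAF-vec, computed on log2(CPM + 0.5), ran from -0.60 to 0.90, with 31 above 0 and 33 below. Their median was -0.0081, beside -0.094 over all genes tested, and it became 0.089 after each sample was centred on its median. At an adjusted *p* under 0.05 (limma, Benjamini-Hochberg over all 12175 genes), 9 members were higher in CAF-200 and 2 were lower, and 53 did not pass. Over all genes tested, 11.9% were higher and 18.6% lower by the same rule. That split depended on scaling, since 39.0% of all calls were higher as deposited and 51.6% after centring. The 9 higher members were *Snrpg*, *Snrpd1* and *Snrpd2* of the Sm ring, *Sf3b3* and *Sf3b4* of SF3b, *Srsf3* and *Srsf10* of the SR proteins, and *Prpf4* and *Prpf31* of the tri-snRNP. The 2 lower members were *Hnrnph3* and *Prpf40b*.

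None of the 64 passed the stricter pair of thresholds the study used (adjusted *p* under 0.01 with a log2 fold-change beyond 1), which 2.37% of all genes tested passed upward and 2.35% downward. *Prpf4* was the member higher at an adjusted *p* under 0.01 at any fold, a level that 4.45% of all genes tested reached upward. At an unadjusted *p* under 0.05, 11 members were higher and 6 lower (limma), beside 17.3% and 27.6% of all genes tested. All 3 CAF-200 values lay above both CAF-vec values for 17 members and below both for 16, and the groups overlapped for 31. The same held upward for 24.3% and downward for 37.3% of all genes tested.

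Most calls rested on having all 3 CAF-200 samples and on a spread shared by the groups. With a separate weight for each group, *Snrpd1* and *Prpf4* (2 members) were higher and 0 lower, and at an unadjusted *p* under 0.05 they were 11 and 4 (limma). Over all genes tested, 5.10% were then higher and 7.01% lower by adjusted *p*, and 12.2% and 19.4% by unadjusted *p*. Without CAF-200 1, 0 members were higher and 0 lower. Without CAF-200 2, *Snrpd1* and *Snrpg* (2 members) were higher, and without CAF-200 3, *Snrpg* (1 member) was, with 0 lower in either case (limma). At an unadjusted *p* under 0.05, between 8 and 9 members were higher and 2 lower in these fits, beside 12.4% to 12.8% and 19.0% to 21% of all genes tested. Calls at the adjusted threshold fell over the whole table as well, to between 3.56% and 4.34% higher and between 3.96% and 5.74% lower. For the 9 higher and 2 lower members, the mean of CAF-200 kept its direction against CAF-vec 1 and against CAF-vec 2. Their groups did not overlap, so this was fixed in advance.

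**Figure D1:**
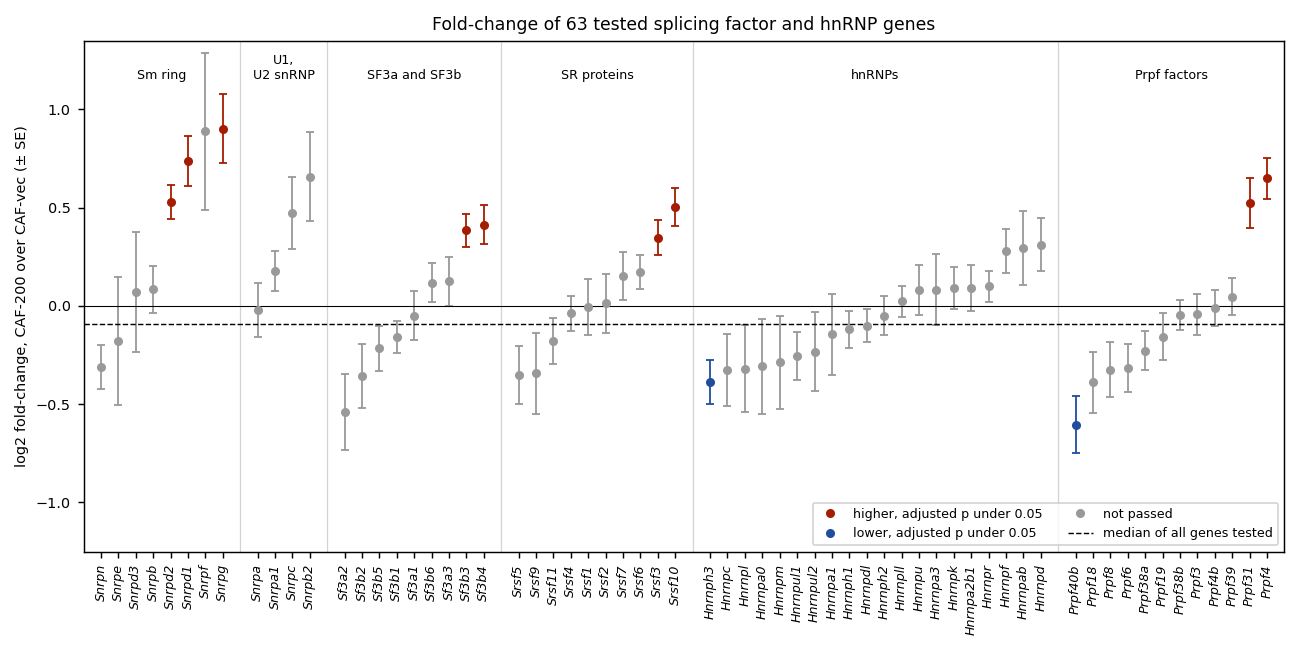
Log2 fold-change of CAF-200 over CAF-vec on log2(CPM + 0.5) for 63 of the 64 tested genes, grouped by class (x axis, genes in order of fold-change) with limma's standard error as the bar. Red points are the 9 genes higher and blue points the 2 genes lower at an adjusted p under 0.05, and the dashed line is the median of all genes tested (-0.094).

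The labelled cell type was checked against fixed markers. Of 10 fibroblast markers, 9 passed the filter, and their levels summed to between 7457 and 14148 CPM in CAF-vec and between 6609 and 7302 CPM in CAF-200. *Col1a1* (log2 fold-change -0.91), *Col1a2* (-0.75) and *Vim* (-0.39) made up most of that sum and did not pass. The median over the 9 was -0.20, with 5 below 0, whereas *Lum* (log2 fold-change 2.82), *Dcn* (2.75) and *Thy1* (1.46) were higher past both of the study's thresholds and 0 were lower (limma). The 7 epithelial markers summed to at most 0.45 CPM in any sample, with *Krt18* and *Sftpc* at 0 throughout. *Kdr* among 6 endothelial markers and *Cd68* among 6 leukocyte markers passed the filter. *Kdr* was 2.31 and 1.82 CPM in CAF-vec and at most 0.69 CPM in CAF-200, lower past both of the study's thresholds (log2 fold-change -1.26, SE 0.187, limma adjusted *p* = 0.00807), and *Cd68* did not pass. The paper detected *Kdr* in these CAFs by RT-qPCR and found it lowered by miR-200, so it is not particular to endothelial cells here. *Pecam1*, *Cdh5*, *Tek* and *Vwf* were at most 0.52 CPM in any sample. *Tie1*, *Cd3e* and *Adgre1* were at 0 in all 5 samples. Of 15 proliferation markers, 13 were higher in CAF-200 and 0 lower (limma adjusted *p* under 0.05), beside 11.9% and 18.6% of all genes tested. Their median log2 fold-change was 0.65, and their sum lay between 1733 and 1793 CPM in CAF-vec and between 2737 and 2892 CPM in CAF-200. The paper, which counted cells, reported a marginal decrease in the growth of CAF-200. The proliferation markers and the higher splicing factors differed between the same groups of samples, and the part of these markers in the result was not tested. *Zeb1*, a well known target of miR-200, was 43.5 and 50.7 CPM in CAF-vec and 37.8, 37.5 and 34.1 CPM in CAF-200, lower in each CAF-200 sample without passing (log2 fold-change -0.36, SE 0.107, limma adjusted *p* = 0.0504). Its relative *Zeb2* had overlapping groups (limma adjusted *p* = 0.374). The samples are bulk RNA, so fewer cells of a type and less RNA per cell cannot be told apart.

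The Sm ring assembles in the cytoplasm around the U1, U2, U4 and U5 RNAs and is needed for their return to the nucleus. Of its 8 genes, 3 were higher, 0 were lower and 5 did not pass, beside 11.9% higher and 18.6% lower of all genes tested. The median log2 fold-change was 0.31. *Snrpg* (ENSMUSG00000057278, chr6:86371304-86379328 of GRCm38, plus strand) encodes SmG. It was 163 and 171 CPM in CAF-vec and 293, 268 and 390 CPM in CAF-200. All 3 CAF-200 samples lay well above the CAF-vec pair, with CAF-200 3 the highest. The log2 fold-change was 0.90 (SE 0.174, limma adjusted *p* = 0.0157), a 1.87-fold higher level, the largest rise among the members. In this fit of all samples *Snrpf*, which did not pass, was close behind at 0.89. *Snrpd2* (ENSMUSG00000040824, chr7:19149722-19153542, plus strand) encodes SmD2. It was 48.8 and 49.2 CPM in CAF-vec and 68.1, 69.4 and 75.4 CPM in CAF-200 (log2 fold-change 0.53, SE 0.0872, limma adjusted *p* = 0.0104). The CAF-vec samples were nearly equal and the groups did not overlap.

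*Snrpd1* (ENSMUSG00000002477) encodes SmD1, the partner that SmD2 binds before the ring closes. Its level was 95.1 and 118 CPM in CAF-vec and 184, 163 and 186 CPM in CAF-200. The lowest CAF-200 sample stood above the higher CAF-vec sample. The log2 fold-change was 0.74 (SE 0.128, limma adjusted *p* = 0.0117).

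The other Sm genes did not pass, and for several the 2 CAF-vec samples differed more than the groups did. *Snrpe* (SmE), the member with the most reads per kilobase of exon (346 CPM per kb over all samples), was 725 and 334 CPM in CAF-vec and 496, 412 and 404 CPM in CAF-200. All 3 CAF-200 samples sat between the CAF-vec samples, and the log2 fold-change was -0.18 (SE 0.326, limma adjusted *p* = 0.697). *Snrpd3* (SmD3) showed the same arrangement, at 357 and 181 CPM in CAF-vec and 297, 219 and 294 CPM in CAF-200. *Snrpf* (SmF) went the other way within CAF-vec, at 46.1 and 126 CPM, and was 131, 140 and 155 CPM in CAF-200. CAF-vec 1 stood apart for this gene, and a log2 fold-change of 0.89 therefore carried a standard error of 0.402 (limma adjusted *p* = 0.142). *Snrpb* (SmB) was 211 to 258 CPM in the 5 samples, with overlapping groups. *Snrpn*, an imprinted gene whose SmN protein replaces SmB mainly in brain, was 28.9 and 24.9 CPM in CAF-vec and 23.3, 20.8 and 20.6 CPM in CAF-200. Every CAF-200 value was below both CAF-vec values, but the log2 fold-change of -0.31 did not pass (SE 0.110, limma adjusted *p* = 0.0819). Counts for small, conserved proteins can be split with processed copies: 13.8% of the 31-base words of *Snrpe* transcripts, 23.1% for *Snrpf*, 12.6% for *Snrpg*, 9.59% for *Snrpd2* and 9.53% for *Snrpd1* also occur in transcripts of other annotated genes. Among genes with deposited values alone, the share was 0.39% for *Snrpd2* and 0% for the rest of these. For *Snrpn* 28.6% of the words were shared, with *Gm38393* and *Snurf*, whose exons overlap its own on the same strand, and with *Gm5802*. Of its words, 23.8% were shared with genes that have deposited values. All these levels are uncertain to that extent, and whether genes without deposited values entered the counting is not known here.

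**Figure D2:**
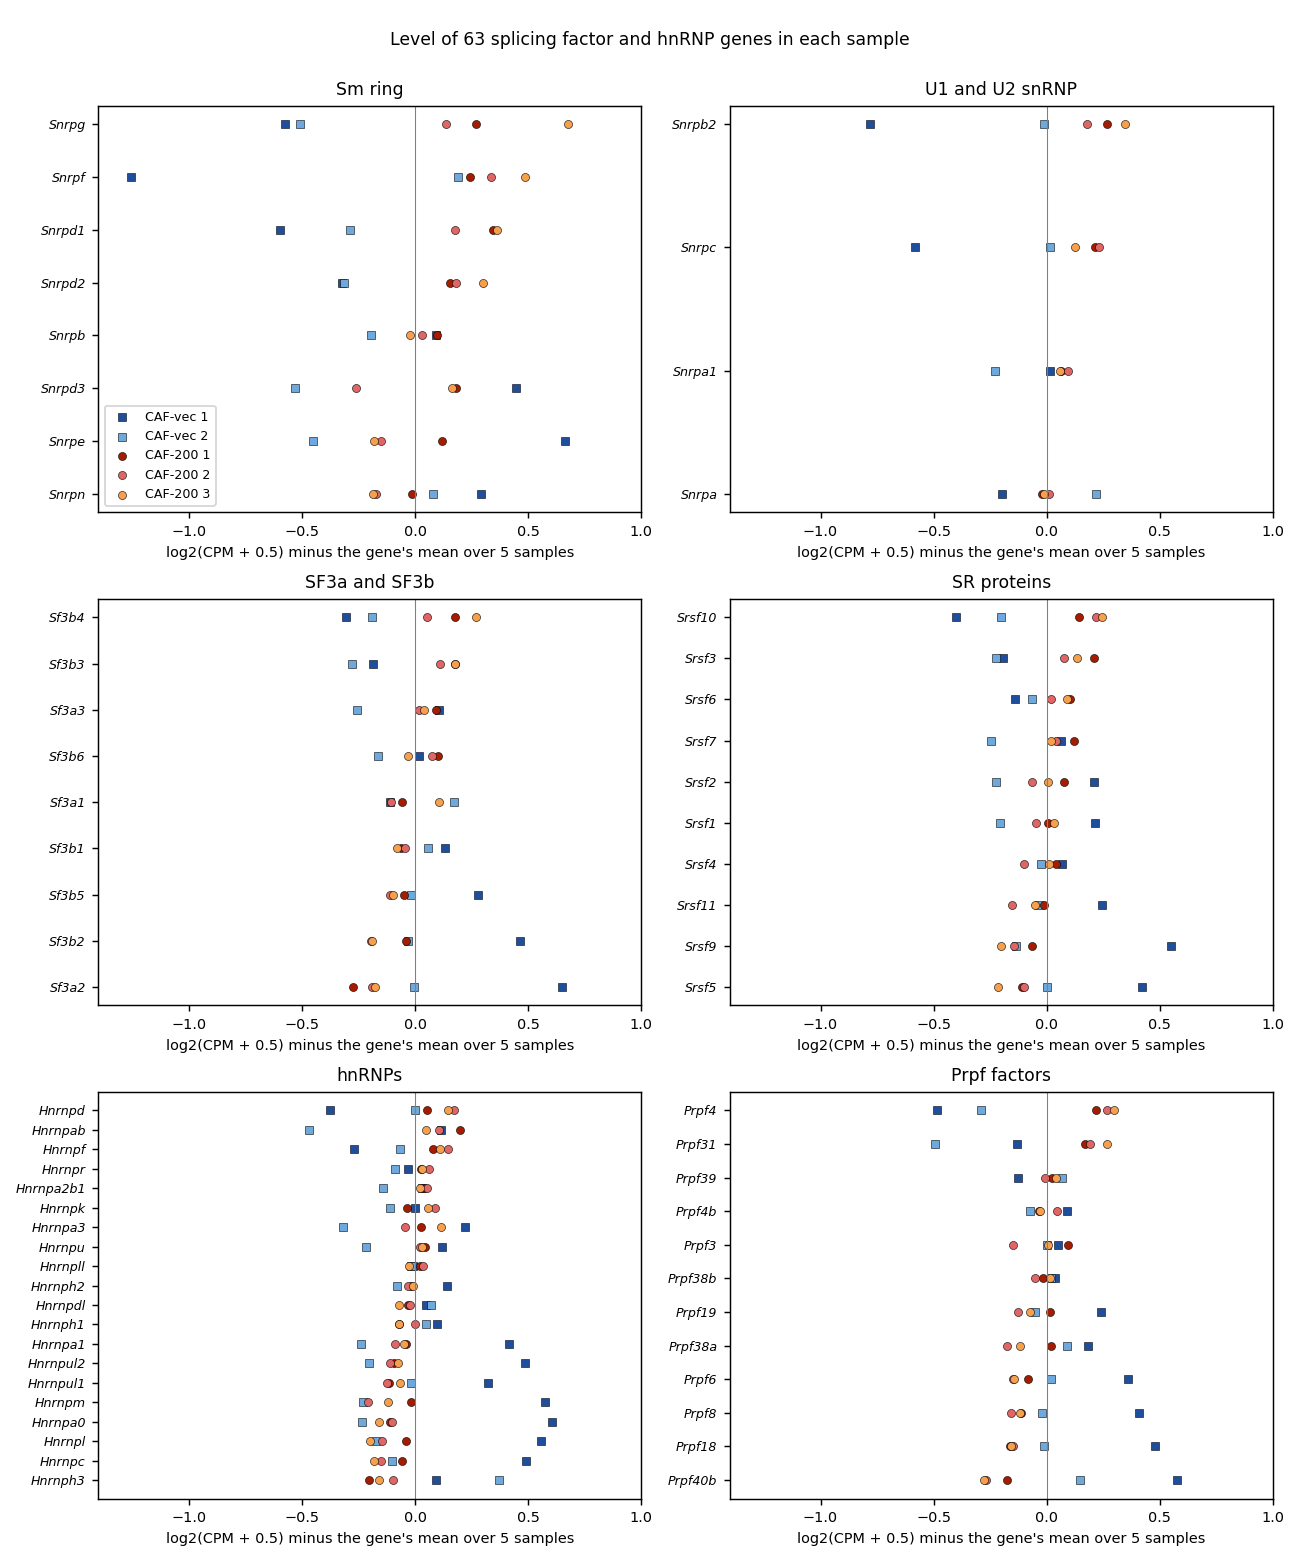
Level of 63 of the 64 tested genes in each sample as log2(CPM + 0.5) minus the gene's mean over the 5 samples (x axis), with genes in rows by class in order of fold-change; squares are CAF-vec and circles CAF-200. The circles lie close together in most rows, whereas the squares are often far apart, as for *Snrpe*, *Snrpd3* and *Snrpf*.

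Of the genes for proteins particular to U1 or U2, 0 of 4 passed, and 2 were higher and 0 lower at an unadjusted *p* under 0.05 (limma), where 17.3% and 27.6% of all genes tested stood. *Snrpb2* and *Snrpa1* encode the U2-B″ and U2-A′ proteins that bind a stem-loop of U2 together. *Snrpb2* was 36.2 and 62.0 CPM in CAF-vec and 75.2, 70.7 and 79.5 CPM in CAF-200, and *Snrpa1* was 64.4 and 54.3 CPM in CAF-vec and 66.6, 68.0 and 66.3 CPM in CAF-200. In both genes every CAF-200 sample was above both CAF-vec samples. The log2 fold-changes were 0.66 (SE 0.225, limma adjusted *p* = 0.075) and 0.18 (SE 0.101, limma adjusted *p* = 0.221). *Snrpc*, whose U1-C protein steadies U1 at the 5′ splice site, was 67.4 and 102 CPM in CAF-vec and 118, 119 and 110 CPM in CAF-200 (log2 fold-change 0.47, SE 0.181, limma adjusted *p* = 0.0979). *Snrpa*, which encodes U1-A, was 81.5 and 109 CPM in CAF-vec and 92.0, 94.2 and 92.5 CPM in CAF-200. The CAF-200 samples lay between the CAF-vec samples.

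SF3a and SF3b belong to the U2 snRNP and hold it to the branch site. Of 9 genes, 2 were higher, 0 lower and 7 did not pass, beside 11.9% higher and 18.6% lower of all genes tested. The median log2 fold-change of the 9 was -0.049 and became 0.048 after centring and 0.061 after quantile normalization. *Sf3b3* (ENSMUSG00000033732, chr8:110810239-110846787, minus strand), a scaffold of the complex, was 90.7 and 85 CPM in CAF-vec and 117, 111 and 117 CPM in CAF-200. Each group was tight and the groups did not overlap, and the log2 fold-change was 0.39 (SE 0.0840, limma adjusted *p* = 0.0215). *Sf3b4* (ENSMUSG00000068856, chr3:96172332-96177564, plus strand), which contacts the pre-messenger RNA near the branch site, was 56.4 and 60.9 CPM in CAF-vec and 78.7, 72.3 and 84 CPM in CAF-200. The groups were again apart, and the log2 fold-change was 0.41 (SE 0.101, limma adjusted *p* = 0.0298). The value of *Sf3b4* is uncertain, as 48.6% of its 31-base words occur in another annotated gene, *Gm7935*. In genes with deposited values the share was 0%. Exons of *Sf3b3* overlap those of *Cog4* on the other strand over 188 bases, and the strand setting of the counting is not given in the sources used here.

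*Sf3b1*, the SF3b subunit that clasps the branch-site adenosine and is recurrently mutated in cancer, was 196 and 186 CPM in CAF-vec and 171, 174 and 169 CPM in CAF-200. All 3 CAF-200 values were below both CAF-vec values, but the log2 fold-change of -0.16 did not pass (SE 0.0833, limma adjusted *p* = 0.194). *Sf3a2* was 175 and 111 CPM in CAF-vec and 92.0, 97.6 and 98.5 CPM in CAF-200, and was highest in CAF-vec 1. Its log2 fold-change of -0.54 did not pass either (SE 0.194, limma adjusted *p* = 0.0846). *Sf3b2* (log2 fold-change -0.36) and *Sf3b5* (-0.22) were also below both CAF-vec samples in all 3 CAF-200 samples without passing, whereas the groups overlapped for *Sf3a1*, *Sf3a3* and *Sf3b6*, whose log2 fold-changes were -0.05 to 0.13.

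Among the SR proteins, 2 of the 10 tested genes were higher, 0 were lower and 8 did not pass, with a median log2 fold-change of 0.0044. Over all genes tested, 11.9% were higher and 18.6% lower. *Srsf10* (ENSMUSG00000028676, chr4:135855747-135869908, plus strand) encodes an SR protein that acts as a repressor when it is dephosphorylated. It was 62.9 and 72.2 CPM in CAF-vec and 91.7, 96.8 and 98.7 CPM in CAF-200. No CAF-200 sample came near the CAF-vec pair, and the log2 fold-change was 0.50 (SE 0.0976, limma adjusted *p* = 0.0159). *Srsf3* (ENSMUSG00000071172, chr17:29032628-29043373, plus strand), the smallest SR protein, which also takes part in RNA export, was 184 and 180 CPM in CAF-vec and 243, 222 and 231 CPM in CAF-200. The CAF-vec samples were close together and the log2 fold-change was 0.35 (SE 0.0894, limma adjusted *p* = 0.0348). Of the 31-base words, 10.8% for *Srsf10* and 13.8% for *Srsf3* are shared with other annotated genes, and 0% and 1.62% with genes that have deposited values.

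The other SR genes did not pass. *Srsf2*, with the most reads per kilobase in the class (130 CPM per kb), was 441 and 326 CPM in CAF-vec and 402, 365 and 382 CPM in CAF-200, and *Srsf1*, the founding SR protein, was 319 and 238 CPM in CAF-vec and 276, 266 and 281 CPM in CAF-200. In both genes the CAF-200 values fell between the 2 CAF-vec values (limma adjusted *p* = 0.951 and 0.984). *Srsf5* was 632 and 473 CPM in CAF-vec and 438, 441 and 406 CPM in CAF-200, lower in every CAF-200 sample, with a log2 fold-change of -0.35 that did not pass (SE 0.149, limma adjusted *p* = 0.123). The log2 fold-changes of *Srsf4*, *Srsf6*, *Srsf7*, *Srsf9* and *Srsf11* were -0.34 to 0.17.

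The hnRNPs had the largest summed level of the 6 classes. Of 20 genes, 0 were higher, 1 was lower and 19 did not pass (limma), beside 11.9% higher and 18.6% lower of all genes tested. The log2 fold-changes of the 20 ran from -0.39 to 0.31. At an unadjusted *p* under 0.05 (limma), 0 were higher and 1 lower, beside 17.3% and 27.6% of all genes tested. CAF-vec 1 had a sum of 9314 CPM over the class and CAF-vec 2 one of 7366 CPM, and the CAF-200 sums of 8269 to 8322 CPM lay between them. *Hnrnph3* (ENSMUSG00000020069, chr10:63014664-63024217, minus strand), a small relative of the G-run binding hnRNP H proteins, was 51.5 and 62.5 CPM in CAF-vec and 41.8, 45.0 and 43.1 CPM in CAF-200. Every CAF-200 sample was lower, and the log2 fold-change was -0.39 (SE 0.110, limma adjusted *p* = 0.0462). This call did not pass without the filter on low values, without a variance trend, or after quantile normalization or centring. Its relatives *Hnrnph1* (491 and 476 CPM in CAF-vec, 437, 460 and 438 CPM in CAF-200) and *Hnrnph2* (111 to 129 CPM in the 5 samples) had log2 fold-changes of -0.12 and -0.05, and *Hnrnpf*, of the same family, had one of 0.28, none of which passed (limma adjusted *p* = 0.359, 0.715 and 0.112).

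*Hnrnpa1*, a repressor of exon inclusion and the member with the highest CPM of any sample, was 1414 and 899 CPM in CAF-vec and 1034, 998 and 1027 CPM in CAF-200. The CAF-200 samples agreed closely and lay between the CAF-vec samples (log2 fold-change -0.14, SE 0.205, limma adjusted *p* = 0.61). *Hnrnpa2b1*, its partner in the A/B group, was 1311 and 1163 CPM in CAF-vec and 1314, 1333 and 1303 CPM in CAF-200 (log2 fold-change 0.09, SE 0.118, limma adjusted *p* = 0.57). *Hnrnpk*, which binds runs of C, was 748 and 691 CPM in CAF-vec and 730, 793 and 777 CPM in CAF-200 (log2 fold-change 0.09, SE 0.108, limma adjusted *p* = 0.535). For these abundant genes the groups overlapped. With 29.3% of its 31-base words shared with other annotated genes, the level of *Hnrnpa1* is uncertain, as are those of *Hnrnpf* (38.5%) and *Hnrnpa3* (28.1%). Among genes with deposited values alone, the shares were 3.9%, 0% and 4.4%.

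*Hnrnpm*, an hnRNP known to drive mesenchymal splice forms, was 387 and 221 CPM in CAF-vec and 257, 224 and 239 CPM in CAF-200, and *Hnrnpl* was 648 and 389 CPM in CAF-vec and 428, 397 and 383 CPM in CAF-200. In both genes CAF-vec 1 stood far above the remaining 4 samples, and neither passed (limma adjusted *p* = 0.385 and 0.304). *Hnrnpa0* and *Hnrnpul2* had the same form, and *Hnrnpc* nearly so, with CAF-200 values from 199 to 217 CPM around the 211 CPM of CAF-vec 2. The level of *Hnrnpm* is uncertain, as 14.0% of its 31-base words occur in genes with deposited values. Its exons overlap those of *March2* on the same strand over 1169 bases. *Hnrnpd* was 218 and 283 CPM in CAF-vec and 294, 319 and 313 CPM in CAF-200, above both CAF-vec samples, with a log2 fold-change of 0.31 that did not pass (SE 0.136, limma adjusted *p* = 0.131). The log2 fold-changes of *Hnrnpa3*, *Hnrnpab*, *Hnrnpdl*, *Hnrnpll*, *Hnrnpr*, *Hnrnpu* and *Hnrnpul1* were -0.25 to 0.29, and none passed.

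The Prpf genes, named after yeast pre-mRNA processing mutants, act at several steps, and 2 of 13 were higher, 1 lower and 10 did not pass. The shares higher and lower (15.4% and 7.69%) stand beside 11.9% and 18.6% of all genes tested. *Prpf4* (ENSMUSG00000066148, chr4:62408797-62426990, plus strand) and *Prpf31* (ENSMUSG00000008373, chr7:3629985-3642486, plus strand) encode proteins of the U4/U6 snRNP, and mutations in *PRPF31* are known for retinal degeneration. *Prpf4* was 7.62 and 8.79 CPM in CAF-vec and 12.7, 13.2 and 13.5 CPM in CAF-200. The groups were well apart, and the log2 fold-change was 0.65 (SE 0.104, limma adjusted *p* = 0.00962), although it was the tested member with the fewest reads per kilobase (1.97 CPM per kb). *Prpf31* was 45.1 and 34.9 CPM in CAF-vec and 55.7, 56.5 and 59.6 CPM in CAF-200 (log2 fold-change 0.52, SE 0.127, limma adjusted *p* = 0.0301). Here the CAF-vec samples were farther apart than the CAF-200 samples, but both lay below all of them. Exons of *Prpf31* overlap those of *Gm15927* on the other strand over 984 bases.

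*Prpf40b* (ENSMUSG00000023007, chr15:99295087-99317018, plus strand), a relative of a U1-associated yeast protein that links the 2 ends of an intron, was 57.2 and 42.3 CPM in CAF-vec and 33.7, 31.6 and 31.4 CPM in CAF-200. Each CAF-200 value was below both CAF-vec values, and the log2 fold-change was -0.60 (SE 0.143, limma adjusted *p* = 0.0274).

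*Prpf8*, the U5 protein at the center of the catalytic site, was 166 and 123 CPM in CAF-vec and 116, 112 and 115 CPM in CAF-200, lower in all 3 CAF-200 samples without passing (log2 fold-change -0.32, SE 0.140, limma adjusted *p* = 0.128). *Prpf6*, which bridges U5 and U4/U6, was 51.4 and 40.4 CPM in CAF-vec and 37.7, 35.9 and 36.0 CPM in CAF-200, and *Prpf18*, of the second catalytic step, was 43.5 and 30.8 CPM in CAF-vec and 27.7, 28 and 27.8 CPM in CAF-200. Both followed the arrangement of *Prpf8* and did not pass (limma adjusted *p* = 0.10 and 0.106). *Prpf19*, the ubiquitin ligase of the Prp19 complex and the member of its class with the most reads per kilobase (29.9 CPM per kb), was 256 and 209 CPM in CAF-vec and 218, 198 and 206 CPM in CAF-200, and its groups overlapped. *Prpf3*, *Prpf4b*, *Prpf38a*, *Prpf38b* and *Prpf39* had log2 fold-changes of -0.23 to 0.05, and none passed.

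**Figure D3:**
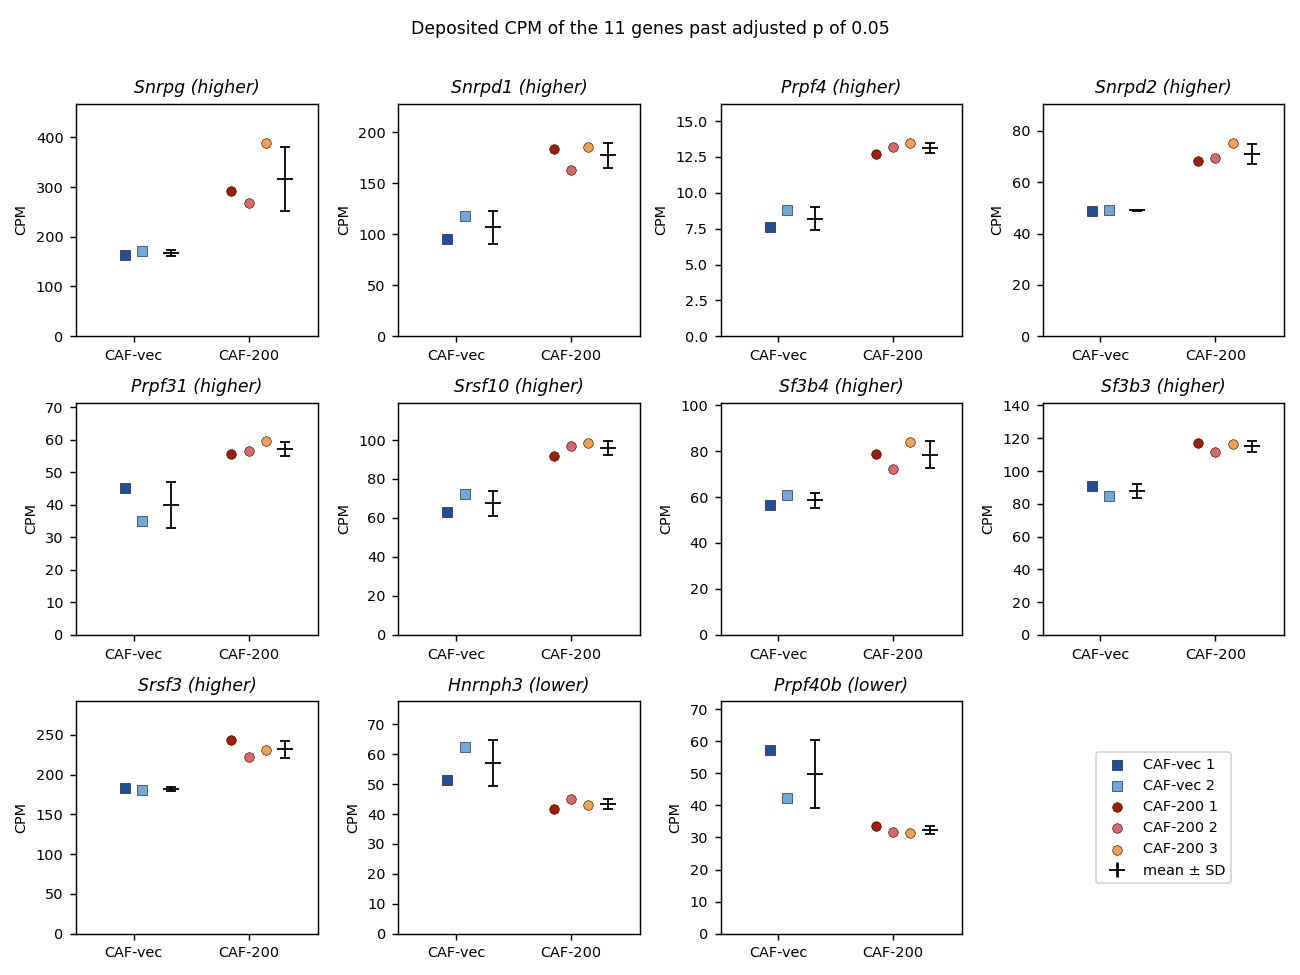
Deposited CPM (y axis, from 0) in each sample of the 9 genes higher and the 2 genes lower in CAF-200 at an adjusted p under 0.05; squares are the 2 CAF-vec samples, circles the 3 CAF-200 samples, and the bar is the mean ± SD. The groups do not overlap in any of the 11 panels, for example 268 to 390 CPM against 163 to 171 CPM for *Snrpg*. These genes were picked by p values from the same samples, so their separation is largely given by that choice. Over all genes tested, 24.3% lay above and 37.3% below both CAF-vec samples.

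The CAF-vec samples differed from each other more than the CAF-200 samples did. Over all genes tested, the SD of the log2 difference between the CAF-vec samples was 0.490, beside 0.192 to 0.204 for pairs of CAF-200 samples. Among the members, the median absolute log2 difference between the CAF-vec samples was 0.305 (0.282 over all genes tested), and the median range over the 3 CAF-200 samples was 0.105 (0.141 over all genes tested). CAF-vec 1 was the higher of the pair for 47 of 64 members, and for 6749 of all 12175 genes tested. As a share of the table's total, the members made up 1.39% to 1.44% in CAF-200, which lay between CAF-vec 1 (1.58%) and CAF-vec 2 (1.25%). Taken against CAF-vec 1 and against CAF-vec 2, the mean of CAF-200 differed in sign for 22 members (34.4%, beside 25.4% of all genes tested). The median log2 difference of the members was -0.088 against CAF-vec 1 and 0.12 against CAF-vec 2.

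Calls outside the 11 depended on which CAF-vec sample was kept. Without CAF-vec 1, 21 members were higher and 4 lower in CAF-200, and without CAF-vec 2, 16 were higher and 25 lower (limma, with the lone CAF-vec sample assumed to vary as CAF-200 does). Over all genes tested, 20.1% were higher and 27.0% lower without CAF-vec 1, and 24.9% and 39.7% without CAF-vec 2, so the members' counts without CAF-vec 2 were near the background. Genes whose CAF-200 values stand apart from both CAF-vec samples tend to be called in both fits, so such calls lend no further support. Outside the 11, *Snrpb2* had log2 differences of 1.04 against CAF-vec 1 and 0.27 against CAF-vec 2, and *Sf3a2* of -0.87 and -0.21. *Snrpe*, *Srsf1* and *Srsf2* (3 members) were higher without CAF-vec 1 and lower without CAF-vec 2, and *Snrpa* (1 member) was the reverse. Without CAF-vec 2, *Snrpf* and *Snrpb2* (2 members) also passed both of the study's thresholds upward.

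**Figure D4:**
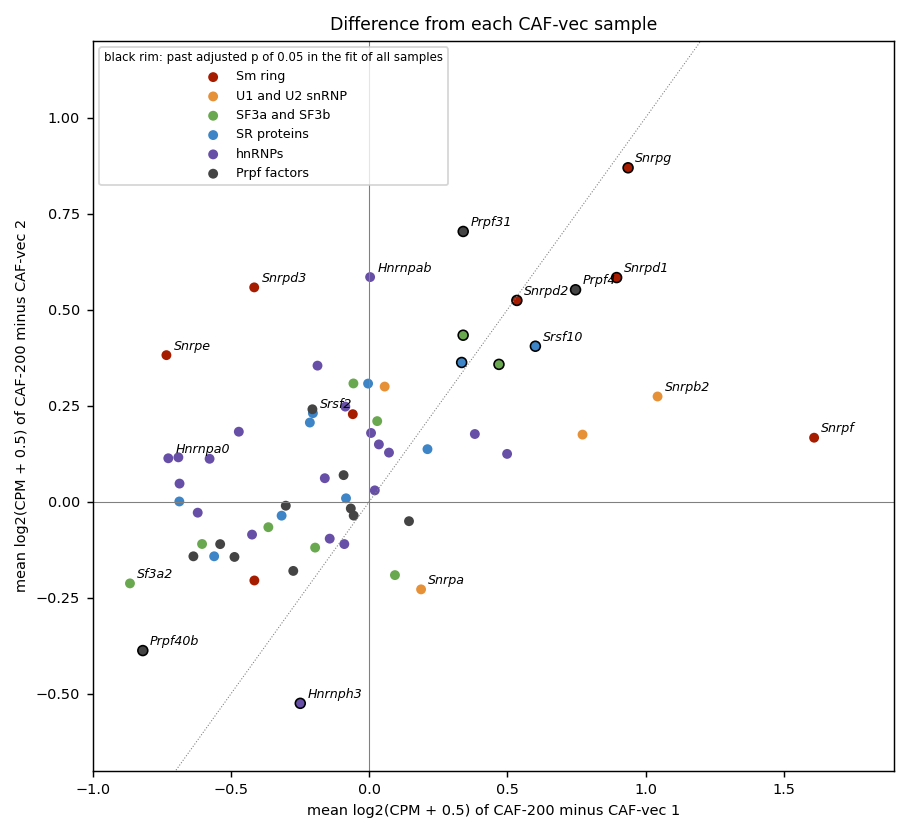
Mean log2(CPM + 0.5) of the 3 CAF-200 samples minus CAF-vec 1 (x axis) and minus CAF-vec 2 (y axis) for the 64 tested genes, colored by class; a black rim marks the 11 genes past an adjusted p of 0.05 and the dotted line marks equal differences. The 22 genes to the upper left and lower right of the origin changed sign with the CAF-vec sample. None of the 11 rimmed genes is among them, which follows from their non-overlapping groups.

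Seed matches of the overexpressed microRNAs were looked for in the longest annotated 3′-UTR of each gene (GENCODE M21, transcript strand). Of the 64 tested members, 20 (31.2%) held at least 1 match to either seed, and so did 30.3% of the 12060 tested genes with a 3′-UTR. Of these 20 members, 3 were higher in CAF-200 (*Srsf10*, *Prpf4* and *Prpf31*) and 0 lower, and the median log2 fold-change was 0.086. The 44 members without a match included 6 that were higher and both that were lower, *Hnrnph3* and *Prpf40b*, and their median was -0.073. Over all tested genes, 413 of 3650 with a match were higher and 629 lower, and 1027 and 1629 of 8410 without one. Their medians were -0.066 with a match and -0.11 without. The matches of the 3 higher members are printed with 30 bases of transcript each, from GRCm38, with the match in capitals, because they show which sites these transcripts carry. The coordinates are those of the 7-base match.
Srsf10, miR-200b and miR-429 (chr4:135867648-135867654, plus strand): tgtttattccagtgcCAGTATTttctgcct
Srsf10, miR-200a (chr4:135868511-135868517, plus strand): tctgaaatctggaaaCAGTGTTaagccttt
Srsf10, miR-200a (chr4:135868898-135868904, plus strand): tatctgtgccgtctgCAGTGTTctgtcctt
Prpf4, miR-200a (chr4:62425430-62425436, plus strand): tttcttgacatcttaCAGTGTTtgtaaaat
Prpf31, miR-200a (chr7:3641992-3641998, plus strand): tcattctgactttgcCAGTGTTgagtggag
Of these, the match of *Srsf10* ending at 135868517 is followed by an A in the transcript, the form known to pair best. In *Snrpb2*, whose log2 fold-change of 0.66 did not pass, 2 matches are both followed by an A.
Snrpb2, miR-200b and miR-429 (chr2:143071981-143071987, plus strand): ggagtagggattgcaCAGTATTagtggcca
Snrpb2, miR-200a (chr2:143072198-143072204, plus strand): ctgcaagttcaagacCAGTGTTagctgttc
A match is a stretch of letters here, and whether it is bound was not measured.

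Promoter windows of 250 bases before to 50 after each start site (RefSeq, GRCm38.p6) were at hand for 57 of the 65 members, in 77 windows, and were searched on both strands for a few motifs. The letters CCGGAAG, a core recognized by ETS factors, stood in 25 member windows (32.5%), beside 8.86% of all 32851 windows. The GC box, searched as GGGCGG, stood in 63.6% of member windows and 35.7% of all. The E-box, searched as CACGTG, was in 14.3% and 7.15%, and the CCAAT box, searched by its 5 letters, in 46.8% and 37.4%. The TATA box (TATAAA) was in 9.09% of member windows and 13.6% of all, and GCATGCGC, the NRF1 motif, in 3.90% and 2.71%. Of the 7 windows of higher members, 2 held the ETS letters, those of *Snrpg* and *Sf3b3*, which are printed 5′ to 3′ on the strand of the gene as examples, with every motif found in capitals.
Snrpg (chr6:86371290-86371589, plus strand): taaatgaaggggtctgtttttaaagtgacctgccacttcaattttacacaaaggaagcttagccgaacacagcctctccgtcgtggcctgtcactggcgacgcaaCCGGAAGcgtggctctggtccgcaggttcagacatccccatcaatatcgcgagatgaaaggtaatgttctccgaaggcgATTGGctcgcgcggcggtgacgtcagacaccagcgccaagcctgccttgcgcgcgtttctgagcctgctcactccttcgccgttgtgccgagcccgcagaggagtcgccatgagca
Sf3b3 (chr8:110846754-110847053, minus strand): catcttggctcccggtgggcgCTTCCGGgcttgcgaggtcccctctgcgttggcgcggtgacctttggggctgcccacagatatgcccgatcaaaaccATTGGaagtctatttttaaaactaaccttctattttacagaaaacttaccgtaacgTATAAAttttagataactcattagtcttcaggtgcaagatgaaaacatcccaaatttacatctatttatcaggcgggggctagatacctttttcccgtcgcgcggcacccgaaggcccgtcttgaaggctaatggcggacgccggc
The *Snrpg* window holds the ETS and CCAAT letters, and that of *Sf3b3* the ETS, CCAAT and TATA letters, on either strand. These are descriptions of the windows and say nothing of what binds there.

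The other genes of the splicing machinery, 129 genes in 8 lists of which 122 were tested, were counted in the same way. Over these lists 15 genes were higher (12.3%) and 14 lower (11.5%), beside 11.9% and 18.6% of all genes tested, so the share that was higher was near the background. Of the 7 LSm proteins that form the ring on U6, *Lsm3* and *Lsm5* were higher and 0 lower. *Lsm3* was 53.8 and 65.9 CPM in CAF-vec and 99.7, 106 and 105 CPM in CAF-200 (log2 fold-change 0.79, SE 0.113, limma adjusted *p* = 0.00758). *Lsm5* was 32.2 and 73.2 CPM in CAF-vec and 117, 136 and 126 CPM in CAF-200 (log2 fold-change 1.36, SE 0.331, limma adjusted *p* = 0.0295). The CAF-200 samples were above both CAF-vec samples in these genes, though CAF-vec 1 was far below CAF-vec 2 for *Lsm5*. *Lsm4* was 198 and 92.6 CPM in CAF-vec and 112, 103 and 95.7 CPM in CAF-200 and did not pass.

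Among the proteins that load the Sm ring, which include the SMN complex and the PRMT5 methylosome, 3 of 15 genes were higher and 0 lower. Over all genes tested, 11.9% were higher and 18.6% lower. The log2 fold-change was above 0 for 13 of the 15, and for 5078 of all 12175 genes tested. After centring 8 of the 15 were higher, beside 15.4% of all genes tested, and after quantile normalization 6, beside 14.7%. *Gemin6* was 15.5 and 14.8 CPM in CAF-vec and 32.2, 31.4 and 31.7 CPM in CAF-200, past both of the study's thresholds (log2 fold-change 1.04, SE 0.0820, limma adjusted *p* = 0.00254). *Gemin4* (log2 fold-change 0.77) and *Ddx20* (0.51), 2 further parts of the SMN complex, were higher as well (limma adjusted *p* = 0.00869 and 0.0117). *Smn1* itself was 44.9 and 29.5 CPM in CAF-vec and 39.0, 37.0 and 38.2 CPM in CAF-200, within the CAF-vec values.

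Beside 11.9% higher and 18.6% lower of all genes tested, 5 of 22 other proteins of the U1, U2, U4/U6 and U5 particles were higher and 0 lower. They were *Ppih* (log2 fold-change 0.85), the cyclophilin bound to PRPF4, *Usp39* (0.70), *Snu13* (0.57), *Snrnp40* (0.43) and *Eftud2* (0.32), the U5 GTPase (limma adjusted *p* = 0.0151, 0.00569, 0.0106, 0.0417 and 0.0307). *Sart1*, a tri-snRNP protein, was 241 and 96.1 CPM in CAF-vec and 99.7, 81.7 and 85 CPM in CAF-200, and did not pass (log2 fold-change -0.78, SE 0.373, limma adjusted *p* = 0.16).

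Of 20 genes of the Prp19 complex and the spliceosomal ATPases, which remodel and release the catalytic spliceosome, 0 were higher and 1, the helicase gene *Dhx16*, was lower. For this list and those below, the shares over all genes tested are 11.9% higher and 18.6% lower. *Dhx16* was 59.4 and 52.6 CPM in CAF-vec and 40.2, 38.5 and 41.5 CPM in CAF-200 (log2 fold-change -0.48, SE 0.0944, limma adjusted *p* = 0.0168). The widest log2 fold-changes that did not pass were -0.57 for *Slu7* and 0.20 for *Plrg1*. Of 9 genes particular to the minor spliceosome, which removes a rare class of introns, 0 were higher and 0 lower. At an unadjusted *p* under 0.05 they were 0 and 1 (limma), beside 17.3% and 27.6% of all genes tested. The log2 fold-changes of the 9 ran from -0.83 for *Scnm1*, highest in CAF-vec 1, to 0.08 for *Rnpc3*. Of the 5 genes of the exon junction complex, which marks spliced junctions, *Eif4a3* (log2 fold-change 0.30, limma adjusted *p* = 0.0456) and *Magohb* were higher and 0 lower. *Magohb* was 37.3 and 52.0 CPM in CAF-vec and 101, 96.4 and 105 CPM in CAF-200, past both of the study's thresholds (log2 fold-change 1.18, SE 0.152, limma adjusted *p* = 0.00579). *Rbm8a*, of the same complex, was 130 and 42 CPM in CAF-vec, with every CAF-200 value between.

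**Figure D5:**
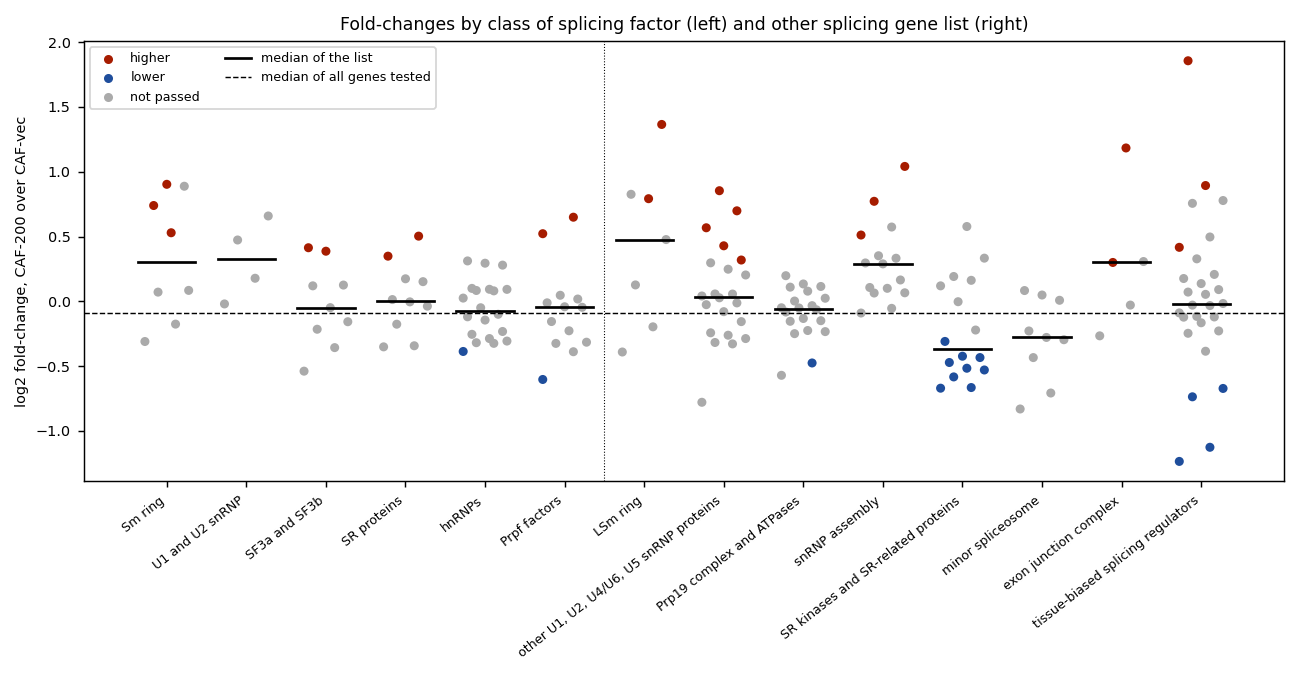
Log2 fold-change of CAF-200 over CAF-vec for each tested gene (points) in the 6 classes described above (left of the dotted line) and the 8 lists of other splicing genes (right); red is higher and blue lower at an adjusted p under 0.05, black bars are medians and the dashed line is the median of all genes tested. Genes of snRNP assembly lie mostly above 0 (median 0.29) and the list of SR kinases and SR-related proteins mostly below (median -0.37).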

How the data were processed

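Poly(A) RNA of 2 CAF-vec and 3 CAF-200 samples was sequenced as stranded paired-end libraries. The deposited table holds CPM values that the authors scaled with edgeR's trimmed mean of M-values. Per the submitters' processing notes, it was made with FastQC, cutadapt, Trimmomatic, STAR, RSEM and edgeR on GRCm38 (mm10), with versions and the strand setting of counting not given in the sources used here. The 5 columns sum to 999956 to 1.00011e+06 CPM, the read depth is unknown, and 0 sample columns were left out.

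Since CPM are not counts, log2(CPM + 0.5) was tested with limma 3.58.1 (variance trend, R 4.3.3) in the 12175 genes that reached 0.5 CPM in 2 or more samples, and *p* values were adjusted over all of them by Benjamini-Hochberg. The script was tested on simulated data. Symbols, exons and 3′-UTRs came from GENCODE M21, promoters and microRNAs from RefSeq. Summaries and plots used Python 3.11.15, pandas 2.3.3, numpy 2.4.6 and matplotlib 3.10.9.

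The members and lists were chosen with earlier results of these data known. Genes named by rule were, per class, up to 3 rises and 3 falls past an adjusted *p* of 0.05 and the highest level per kilobase, the extremes of each other list, and some fixed by role. Other genes were named after their values were seen. Alternatives covered pseudocounts, filters, scaling, the variance model, the threshold, a replicate block and leaving out each sample. Of the members, 1 that did not pass is counted but not reported by name.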

Additional observations from a re-analysis of the deposited data

How the results depend on the processing

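The read depth is unknown and CAF-vec has 2 samples. Leaving out single samples gave these lowest and highest values. Members: higher 0 to 21, lower 0 to 25, past both thresholds upward 0 to 2, median log2 fold-change -0.0883 to 0.120. Sm ring: higher 0 to 6, lower 0 to 2, median 0.237 to 0.453. U1 and U2: higher 0 to 3, lower 0 to 1. SF3a and SF3b: higher 0 to 3, lower 0 to 4, median -0.113 to -0.0055. SR proteins: higher 0 to 5, lower 0 to 5, median -0.144 to 0.171. hnRNPs: higher 0 to 3, lower 0 to 8, median -0.152 to 0.114. Prpf: higher 0 to 2, lower 0 to 6, median -0.206 to -0.0362. LSm ring: higher 0 to 5, lower 0 to 3, median 0.097 to 0.647. Other snRNP proteins: higher 1 to 7, lower 0 to 9, median -0.134 to 0.106. Prp19 complex and ATPases: higher 0 to 2, lower 0 to 11, median -0.208 to 0.0654. Assembly: higher 1 to 11, lower 0 to 1, median 0.171 to 0.362. SR kinases: higher 0 to 3, lower 0 to 10. Minor spliceosome: higher 0 to 1, lower 0 to 7, median -0.421 to 0.00542. Exon junction complex: higher 1 to 4, lower 0 to 1, median 0.264 to 0.314. Tissue-biased: higher 1 to 11, lower 1 to 9, median -0.0976 to 0.0663. The cause of these changes was not tested.

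At an adjusted *p* under 0.01 (limma), members were 1 higher and 0 lower, Prpf 1 and 0, and Sm, SF3a and SF3b, and SR higher and hnRNPs lower 0 each; LSm, other snRNP and exon junction genes were 1 higher each, the ATPase list 0, SR kinases 1 and tissue-biased genes 2 lower. Centring left 1 member and 0 hnRNPs lower, and gave medians of 0.0885 (members), 0.0475 (SF3a and SF3b), 0.0216 (hnRNPs), 0.385 (assembly), -0.270 (SR kinases), 0.396 (exon junction) and 0.0733 (tissue-biased), with 1 ATPase-list, 8 assembly and 3 SR kinase-list genes higher. Quantile normalization left 1 member and 0 hnRNPs lower, with 1 U1 or U2 gene (*Snrpa1*), 1 ATPase-list, 6 assembly and 2 SR kinase-list genes higher, and medians of 0.0609 (SF3a and SF3b), 0.0601 (Prpf), -0.268 (SR kinases), 0.402 (exon junction) and 0.0668 (tissue-biased). Over all genes tested, 15.4% were higher and 14.4% lower after centring, and 14.7% and 15.5% after quantile normalization. Of all calls after quantile normalization, 48.5% were higher. Without the filter or without a variance trend, 1 member and 0 hnRNPs were lower. The former left 1 LSm gene higher and the latter 1 exon junction gene. Over all genes in these fits, 8.41% were higher and 12.5% lower without the filter, and 11.8% and 18.3% without a variance trend. With a pseudocount of 1, 1 SR kinase-list gene was higher. With weights per group, 2 members (*Snrpd1* and *Prpf4*) were higher and 0 lower, with 1 Sm, 0 SF3a or SF3b, 0 SR, 1 Prpf, 3 other snRNP and 1 exon junction gene higher, and 0 hnRNP, 0 Prpf, 0 ATPase-list, 2 SR kinase-list and 2 tissue-biased genes lower.

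Replicate numbers recur in the groups for 2 pairs, and the labels do not say that a number marks a shared batch. Deviations of same-numbered samples correlated at r = 0.249 (number 1) and 0.134 (number 2) across genes, which are not independent replicates. With the replicate number as a block, 1 member (*Snrpg*) was higher and 0 lower. Over all genes in this fit, 5.17% were higher and 6.998% lower, so calls fell over the whole table as well. At an unadjusted *p* under 0.05, 9 members were higher and 3 lower (limma), beside 12.9% and 20.4% of all genes. In the same fit, 1 Sm, 0 SF3a or SF3b, 0 SR, 0 Prpf, 2 other snRNP and 1 exon junction gene were higher. Lower were 0 hnRNP, 0 Prpf, 0 ATPase-list, 0 SR kinase-list and 2 tissue-biased genes. The medians were -0.113 (SF3a and SF3b) and 0.264 (exon junction).

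Some genes changed sign. Centring gave log2 fold-changes of 0.00609 for *Coil*, 0.00718 for *Mbnl1*, 0.0796 for *Ptbp2*, 0.0762 for *Snrpa* and 0.0922 for *Srsf1*, and quantile normalization 0.0593 for *Ptbp2*, 0.0732 for *Snrpa* and 0.0538 for *Srsf1*. Leaving out single samples gave -0.196 to 0.0149 for *Coil*, -0.472 to 0.182 for *Hnrnpa1*, -0.939 to 0.156 for *Lsm4*, -0.416 to 0.237 for *Mbnl1*, -0.0411 to 0.00700 for *Ptbp2*, -0.143 to 0.416 for *Qk*, -0.282 to 0.0492 for *Rbfox2*, -1.08 to 0.542 for *Rbm8a*, -0.228 to 0.188 for *Snrpa*, -0.734 to 0.381 for *Snrpe*, -0.215 to 0.206 for *Srsf1*, -0.204 to 0.230 for *Srsf2* and -0.542 to 0.0828 for *Zeb2*. Of 671 values over the named genes and all alternatives, 546 stayed on the same side of the threshold in the same direction, 68 no longer passed, 34 newly passed and 23 changed sign.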

Other observations

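Among 16 SR protein kinases and SR-related proteins, 9 genes were lower in CAF-200, 0 were higher and 7 did not pass (limma adjusted *p* under 0.05), beside the 18.6% of all genes tested that were lower. They included all 4 CLK kinases, which phosphorylate SR proteins in the nucleus. *Clk1* was 173 and 176 CPM in CAF-vec and 114, 122 and 113 CPM in CAF-200 (log2 fold-change -0.58, SE 0.0853, limma adjusted *p* = 0.0079). *Clk4* was 100.4 and 90.6 CPM in CAF-vec and 64.6, 61.8 and 53.9 CPM in CAF-200 (log2 fold-change -0.67, SE 0.113, limma adjusted *p* = 0.011), and *Clk2* (-0.47) and *Clk3* (-0.52) were also lower. No CAF-200 sample of these genes reached a CAF-vec value. *Sfswap*, *Srrm2*, *Acin1*, *Rbm39* and *Srpk2* made up the rest, with log2 fold-changes of -0.67 to -0.31. *Tra2b*, an SR-like activator, was 104 and 155 CPM in CAF-vec and 187, 191 and 191 CPM in CAF-200 and did not pass (log2 fold-change 0.58, SE 0.174, limma adjusted *p* = 0.0536). Without either CAF-vec sample 10 genes of the list were lower, without CAF-200 1 or CAF-200 2 it was 1, and without CAF-200 3 it was 0. Of all genes tested, 27.0% were lower without CAF-vec 1, 39.7% without CAF-vec 2 and 3.96% to 5.74% without a CAF-200 sample.

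Of 35 splicing regulators that are biased to particular tissues, 28 were tested, 3 were higher (10.7%) and 4 lower (14.3%), beside 11.9% and 18.6% of all genes tested. *Khdrbs3*, a STAR-family regulator, was 3.06 and 2.42 CPM in CAF-vec and 11.4, 9.07 and 13.5 CPM in CAF-200, past both of the study's thresholds (log2 fold-change 1.86, SE 0.193, limma adjusted *p* = 0.00368). *Srrm4*, an activator of neuronal microexons, was 8.62 and 8.35 CPM in CAF-vec and 3.75, 3.61 and 3.48 CPM in CAF-200, past both thresholds downward (log2 fold-change -1.13, SE 0.102, limma adjusted *p* = 0.00294). The groups were far apart in both genes. *Mbnl3* (log2 fold-change 0.89) and *Taf15* (0.42) were higher, and *Nova1* (-1.24), *Celf5* (-0.74) and *Rbm47* (-0.67) lower. *Esrp1*, which sets epithelial splicing, was listed at 0 in all 5 samples, and *Esrp2* was 0.240 and 0.660 CPM in CAF-vec and 0.942, 1.18 and 1.15 CPM in CAF-200 without passing (limma adjusted *p* = 0.0516). *Qk*, *Mbnl1*, *Rbfox2* and *Ptbp1*, known for mesenchymal or muscle splice forms, had log2 fold-changes of 0.14, -0.09, -0.12 and -0.12, and none passed. Without CAF-vec 1 the list had 3 higher and 9 lower, without CAF-vec 2 it had 11 and 5 (20.1% and 27.0%, and 24.9% and 39.7%, of all genes tested), and without a CAF-200 sample 1 to 2 were higher and 1 to 2 lower (3.56% to 4.34% and 3.96% to 5.74% of all genes tested).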
